A study of Schizosaccharomyces pombe with 3 samples.

Results

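The genes described here are 2 uracil-regulated genes, urg1 and urg2, and 5 genes of pyrimidine synthesis, ura1 to ura5, of the fission yeast Schizosaccharomyces pombe. They were chosen by their gene symbols in the array annotation, with earlier results of these arrays known, so their differences are a description. All 7 were measured, each by 1 probe set, out of 4981 features, which are named genes or single probe sets without a gene name. The unadapted culture, also called the deletion culture, came from an h- strain (SpHT257-1) in which eca39 was deleted and replaced by kanMX4. Eca39 encodes the aminotransferase that acts on isoleucine, leucine and valine and their keto acids. The adapted eca39 deletion culture came from the same strain after it had grown beside wild-type cells on an EMM2-N plate that held 15 mM glutamate together with isoleucine, leucine and valine at 2 mM. The wild-type culture was a prototrophic h- strain (SpHT219). Wild type and the unadapted deletion strain were taken from plates of YE, a rich medium, with these amino acids at the same 2 mM, so that adaptation and the plate before the culture cannot be told apart. For the RNA, each strain was grown in YE liquid medium that held the same 3 amino acids at 2 mM, starting near an optical density of 0.1 and harvested near 1. Each was read on 1 Affymetrix array, and nothing in the labels shows a repeat culture.

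Cells make pyrimidines from small precursors through uridine monophosphate, or recover them from uracil and nucleosides in the medium. In fission yeast, ura1 encodes the enzyme that joins carbamoyl phosphate synthesis with the aspartate transcarbamylase step, ura2 dihydroorotase, ura3 dihydroorotate dehydrogenase, ura5 orotate phosphoribosyltransferase and ura4 orotidine monophosphate decarboxylase. The urg genes are induced when uracil is added to the medium. Urg1 resembles GTP cyclohydrolase II, urg2 resembles uracil phosphoribosyltransferase, and relatives of both take part in uracil breakdown in the yeast Lachancea kluyveri.

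The values are log2 expression values made by the authors with RMA, so a difference of 1 is 2-fold. A gene was said to rise or fall where 2 arrays differed at least 2-fold and the brighter reached the 30th percentile of the table, 9.82. All 7 genes reached that limit. Since each group had a single array, no p-value could be had, and the precision of the values is limited by the number of arrays. An array of a whole culture also cannot tell a change in every cell from a larger change in a fraction of the cells. As a check of the labels, eca39 read 6.12 in the unadapted culture and 6.37 in the adapted culture, against 14.60 in wild type.

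The urg genes were higher in both mutant cultures, while no ura gene passed the 2-fold rule in any comparison. Urg1 (SPAC1002.19) read 13.38 in the unadapted culture and 13.26 in the adapted culture, against 10.03 in wild type. Urg2 (SPAC1002.17c) read 13.28 in the unadapted culture and 13.06 in the adapted culture, against 10.76 in wild type. Both mutant arrays were high and close to each other for either gene, and the wild-type array was low. Urg1 rose 10.2-fold in the unadapted culture and 9.40-fold in the adapted culture, and urg2 rose 5.73-fold in the unadapted culture and 4.91-fold in the adapted culture. Both comparisons share the wild-type array, so a low reading there would raise both. Dim features read somewhat lower on the wild-type array, with a median difference from it of 0.08 in the unadapted and 0.11 in the adapted culture over the 1660 dimmest. With the trend between arrays removed, the log2 differences were 3.41 and 3.23 for urg1 and 2.59 and 2.30 for urg2, in the unadapted and the adapted culture.

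Among the 3569 features that reached the brightness limit in the deletion culture or wild type, 2.3% rose and 0.0841% fell. For the adapted culture against wild type 1.48% of 3588 features rose and 0.223% fell. Since urg1 and urg2 were chosen with earlier results of these arrays known, nothing is read from their share or from their place among all features. Counted without the brightness limit, 9 of 4981 features had a higher log2 difference than urg1 in the deletion culture, and 2 of those were named genes. In the adapted culture 3 features had a higher difference than urg1, and none of them was a named gene. For urg2 these counts were 18 features in the unadapted culture and 14 in the adapted culture.

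**Figure D1:**
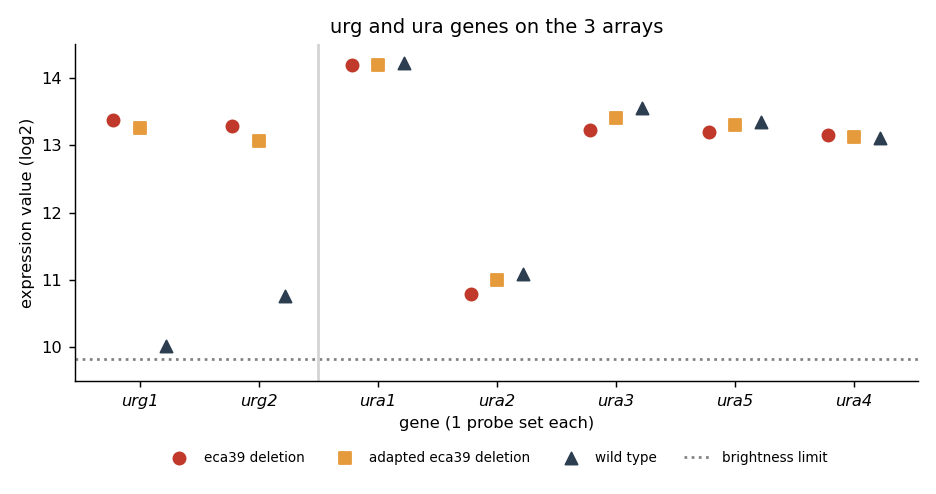
Expression value (log2, vertical axis) of each gene on the eca39 deletion array, the adapted eca39 deletion array and the wild-type array, 1 point per array, with the brightness limit of 9.82 as a dotted line. Urg1 and urg2 stand above 13 on both mutant arrays, against 10.03 and 10.76 in wild type, while the 3 points of each ura gene differ by at most 0.32, and heights of different genes are not comparable because each has its own probes.

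The ura genes stayed close to wild type, and most read slightly lower. In the order of the reactions, ura1 (SPAC22G7.06c) read 14.19 in the unadapted culture and 14.19 in the adapted culture, against 14.22 in wild type. Ura2 (SPAC16.03c) read 10.79 and 11.00 in the deletion and adapted cultures, against 11.093 in wild type. Ura3 (SPAC57A10.12c) read 13.23 and 13.40 in the deletion and adapted cultures, against 13.55 in wild type. For both of these genes the deletion array was the lowest of the 3 and the adapted array lay between it and wild type.

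Ura5 (SPBC725.15) had the same order, with 13.20 in the unadapted culture and 13.30 in the adapted culture, against 13.35 in wild type. Ura4 (SPCC330.05c), a widely used selectable marker gene in this yeast, read 13.16 in the unadapted culture and 13.11 in the adapted culture, against 13.11 in wild type. It was the only ura gene with no lower reading in either mutant culture, and its sign changed under other scalings.

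In the deletion culture the log2 differences from wild type were -0.32 for ura3, -0.30 for ura2, -0.14 for ura5, -0.031 for ura1 and 0.050 for ura4. Their median was -0.14, beside 0 over all features. The lowest of them, that of ura3, was below those of 95.7% of all features, and that of ura2 below those of 94.6%. Of all features, 5.40% lay at -0.3 or lower, ura3 among them and ura2 just above that value. The sign was negative for ura2, ura3 and ura5 under all 3 other scalings tried (repeated quantile normalization, removal of the intensity trend and centring on array medians), while the differences of ura1 and ura4 changed sign under at least 1 of them.

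In the adapted culture the ura genes lay between -0.15 for ura3 and 0.0078 for ura4, with a median of -0.047, beside 0.027 over all features. Of the 5 genes, 4 were below 0, beside 34.8% of all features. In the deletion culture 4 of 5 were below 0 as well, beside 42.8% of all features. The ura differences were smaller than the standard deviation over all features against wild type, 0.413 for the deletion culture and 0.374 for the adapted culture. That deviation also counts eca39 and the features that rose, so it is a wide measure. The quartiles of all features were -0.099 and 0.16 for the deletion culture, with 2 of the 5 ura genes between them. For the adapted culture the quartiles were -0.048 and 0.19, with 3 of the 5 between them. The other ura genes lay below the lower quartile. Ura1, ura3, ura4 and ura5 are bright, with ura1 at the 96.1st percentile of the wild-type array. Array signals can be compressed in this range, so small changes may be understated. On the mutant arrays urg1 and urg2 read about as high as ura3, ura4 and ura5, from 13.06 to 13.38, so the same limit holds there.

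**Figure D2:**
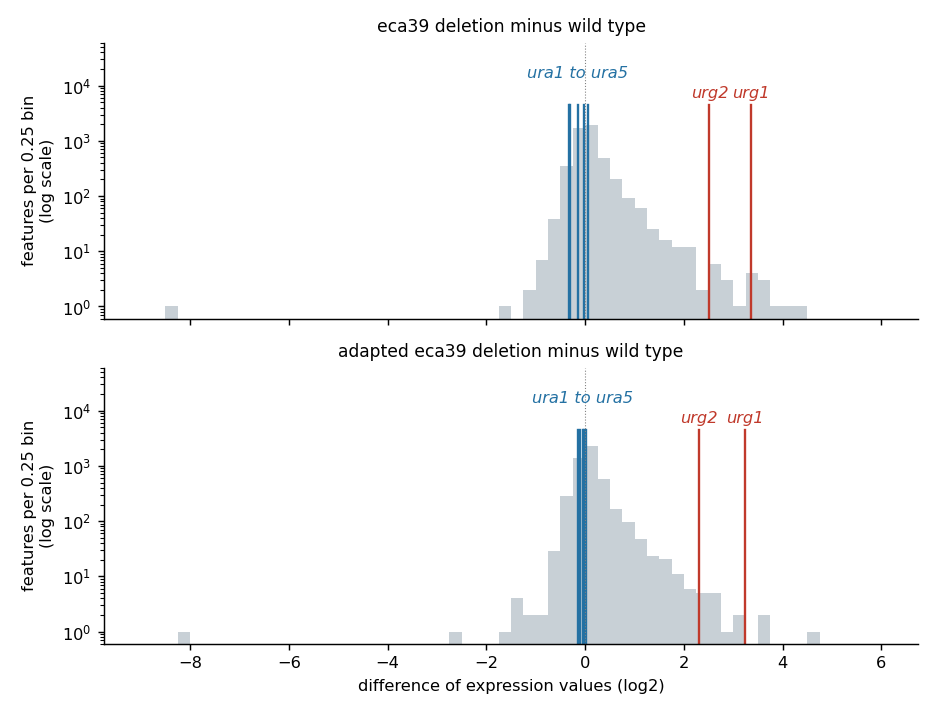
Number of features (log scale, vertical axis) by their log2 difference from wild type (horizontal axis) for the eca39 deletion culture above and the adapted culture below, with red lines at urg1 and urg2 and blue lines at the 5 ura genes. The red lines stand in the thin upper tail, at 3.35 and 2.52 above and 3.23 and 2.30 below, and the blue lines in the main peak, between -0.32 and 0.050 above and between -0.15 and 0.0078 below; the lone bar at the far left of each panel holds eca39.

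The distance between the 2 sets was larger than the range within either, which is a description, since the sets were chosen with earlier results known. The mean difference of urg1 and urg2 from wild type was 2.93 in the deletion culture, and it exceeded the ura median by 3.08 on the log2 scale, or 8.44-fold. In the adapted culture the mean was 2.76 and the distance 2.81, or 7.02-fold. Even the smaller urg difference, that of urg2, exceeded the highest ura difference by 2.47 in the unadapted culture and 2.29 in the adapted culture. Within the pair, the difference of urg1 exceeded that of urg2 by 0.83 in the unadapted culture and 0.94 in the adapted culture. The wild-type reading of urg1 was 0.20 above the brightness limit and that of urg2 0.94 above it.

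Between the mutant cultures no member rose or fell, where 0.194% of 3609 features rose and 0.471% fell. Against the unadapted deletion culture, the adapted culture differed by -0.12 for urg1 and -0.22 for urg2. The ura genes differed by 0.20 for ura2, 0.17 for ura3, 0.098 for ura5, 0 for ura1 and -0.042 for ura4, with a median of 0.098, beside 0.0029 over all features. Each of these is within 1 standard deviation of all differences between the mutant arrays, 0.245. As deposited, both urg genes and ura2, ura3, ura4 and ura5 stood nearer to wild type in the adapted than in the unadapted culture. Ura1 stood equally near. The sign against wild type changed with the scaling for ura4 in both mutant cultures and for ura1 in the unadapted culture. Between the mutant cultures it changed for ura1 alone among the members.

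The third gene of the urg group, urg3, also read higher in both mutant cultures but did not reach 2-fold. It read 12.26 in the unadapted culture and 12.15 in the adapted culture, against 11.38 in wild type, which is 1.84-fold and 1.71-fold higher. The 3 urg genes are neighbours on chromosome I, in the order urg2, urg3, urg1 among protein-coding genes of the RefSeq assembly ASM294v3. Urg3, which lies between the other two, had the smallest difference of the cluster.

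The genes measured around the cluster did not pass the 2-fold rule. On the side of urg2 the nearest measured genes were itt1, med6, which encodes a Mediator subunit, psu1 and gaa1. On the side of urg1 they were fur4, the gene of the uracil permease, then mam3, scm3 and nxt1. The log2 differences of these 8 genes ran from -0.23 to 0.23 in the unadapted culture and from -0.25 to 0.66 in the adapted culture, the highest being that of mam3, a cell adhesion gene of mating. Med6 and scm3 were below the brightness limit on all arrays. Fur4 read 11.15 in the unadapted culture and 11.24 in the adapted culture, against 11.38 in wild type, log2 differences of -0.23 and -0.14, against 3.35 and 3.23 for urg1. No probe set was named here for 9 genes in this stretch, among them toe1 and uck2, which lie between urg1 and fur4, and tna1, next to urg2.

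**Figure D3:**
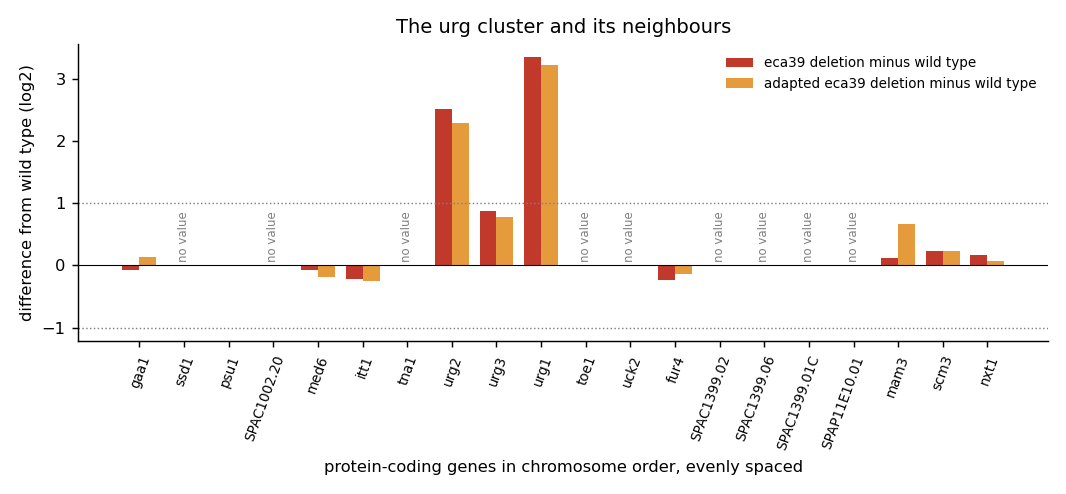
Log2 difference from wild type (vertical axis) of protein-coding genes in chromosome order around the urg cluster (horizontal axis, evenly spaced), with the eca39 deletion in red and the adapted deletion in orange, dotted lines at 2-fold, and genes without a named probe set marked as having no value. The bars of urg2 (2.52 and 2.30) and urg1 (3.35 and 3.23) cross the upper line, those of urg3 (0.88 and 0.77) stop below it, and none of the 8 flanking genes exceeds 0.66.

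Other genes of pyrimidine metabolism and related pathways were read from 5 lists with 31 genes. Dcd1 was counted in both the list of later steps and that of salvage. Of the 31, 11 had a named probe set here and are called measured. The others may be read by probe sets without a single gene name. In the deletion culture 2 of the 11 rose and none fell, beside the 2.3% and 0.0841% given above, and in the adapted culture none rose or fell; the median difference was 0.16 and 0.099 in these cultures, beside 0 and 0.027 over all features. The 2 were arg4 and arg5, which encode the subunits of the carbamoyl phosphate synthase of arginine synthesis. Arg4 read 14.07 in the unadapted culture and 13.73 in the adapted culture, against 13.03 in wild type, a difference of 2.07-fold in the unadapted culture and 1.63-fold in the adapted culture. Arg5 read 13.87 in the unadapted culture and 13.62 in the adapted culture, against 12.84 in wild type, a difference of 2.04-fold in the unadapted culture and 1.72-fold in the adapted culture. Both stood just inside the rule in the deletion culture. With each array centred on its median arg4 fell short of it, at a log2 difference of 0.99, as did arg5, at 0.97, and repeated quantile normalization also ended the call of arg5. Carbamoyl phosphate for pyrimidines is made by the enzyme of ura1, whose reading was within 0.031 of wild type in both mutant cultures.

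Prs1, the gene of a phosphoribosyl pyrophosphate synthetase, read 13.12 in the unadapted culture and 13.22 in the adapted culture, against 13.42 in wild type. That compound is used by the enzymes of both ura5 and, by resemblance, urg2. The log2 difference of prs1 from wild type was -0.30 in the unadapted culture, beside -0.14 for ura5 and 2.52 for urg2. In the adapted culture it was -0.20, beside -0.047 for ura5 and 2.30 for urg2. In the salvage list only urg3, fur4 and the cytidine deaminase gene cdd1 had a named probe set, out of 11 genes. Cdd1 read 10.24 in the unadapted culture and 10.34 in the adapted culture, against 9.83 in wild type, differences of 0.40 and 0.50 that did not reach 2-fold.

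Of 8 genes for later steps, 4 had a named probe set and none of these passed the rule. Cdc22, which encodes the large subunit of ribonucleotide reductase, read 12.10 in the unadapted culture and 12.62 in the adapted culture, against 12.72 in wild type. Its log2 difference in the unadapted culture was -0.62, the largest in size of the 4 there and below those of 99.5% of all features. In the adapted culture it was -0.095, and that of tmp1 was the largest. Between the mutant cultures the difference of cdc22 was 0.53, with 1.79% of all features higher. Suc22, the gene of the small subunit, had differences of 0.044 in the unadapted culture and 0.099 in the adapted culture. The nucleoside diphosphate kinase gene ndk1 had differences of 0 and 0.0064 in these cultures, and tmp1 had differences of 0.23 and 0.26. In the list for urea use only ure2 had a named probe set, with differences of 0.16 and 0.074. None of 6 riboflavin and GTP cyclohydrolase genes had one.

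**Figure D4:**
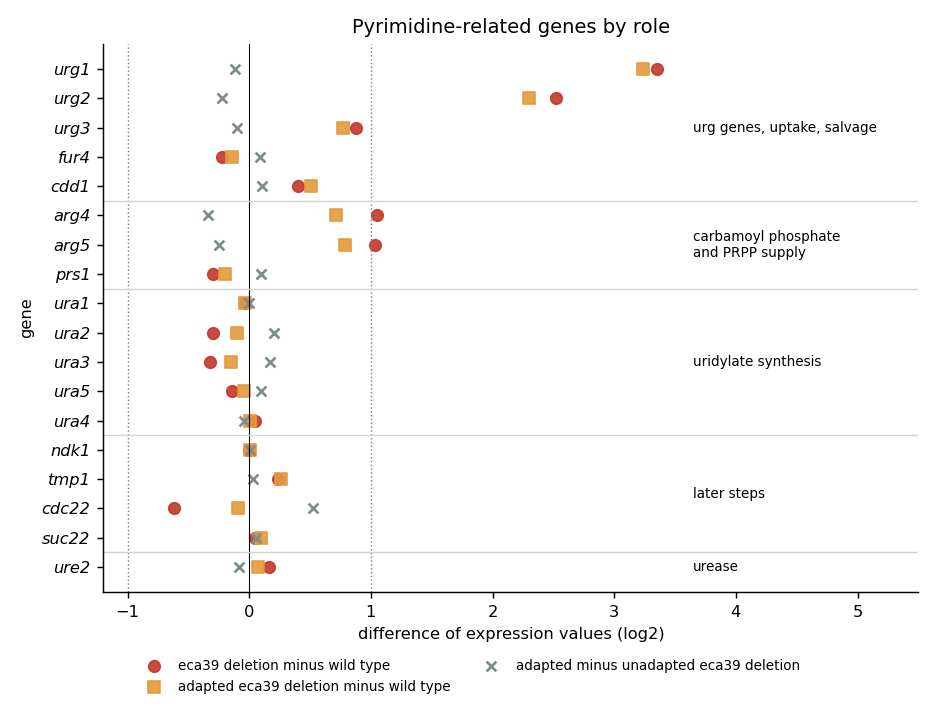
Log2 differences (horizontal axis) of 18 pyrimidine-related genes ordered by role (vertical axis): eca39 deletion minus wild type as red circles, adapted deletion minus wild type as orange squares, and adapted minus unadapted deletion as grey crosses, with dotted lines at 2-fold. Against wild type urg1 and urg2 lie beyond 2.29, arg4 and arg5 reach the line in the deletion culture alone, and the ura genes and later steps lie between -0.62 and 0.26; the highest cross is that of cdc22, at 0.53.

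The named genes whose differences from wild type lay nearest to the mean of urg1 and urg2 were, in order, aca1, gdh2, aes1, mug14 and wtf20. Nearness was the Euclidean distance over the 2 differences, which rest on 3 arrays, and it ran from 0.25 for aca1 to 1.47 for wtf20. Aes1 was the nearest named gene to urg1 alone, at 0.22. Gdh2, the gene of the NAD-dependent glutamate dehydrogenase, was the nearest named gene to urg2 alone, at 0.42. No feature without a gene name was nearer to urg1 than aes1, while 3 were nearer to urg2 than gdh2. The 5 nearest to urg1 were the same 5 genes, and mmf2 was among the 5 nearest to urg2, in place of aes1. All of these except wtf20 passed the 2-fold rule in the deletion culture, and wtf20 was below the brightness limit on all arrays. The wtf genes are a family of similar sequence, so the probe sets of wtf20 may read transcripts of other members. Mug14 read 7.33 in wild type and 9.29 in the adapted culture, both below the limit. Its 3.88-fold difference in the adapted culture therefore did not pass the rule. Mmf2 read 8.40 in wild type, also below the limit. The nearness of these dim genes thus rests on low wild-type readings. Between the mutant cultures these 6 genes went apart, with mug14 at a log2 difference of -1.41, the only one that fell, gdh2 at -0.69, aca1 at -0.48, aes1 at -0.42, mmf2 at -0.066 and wtf20 at 0.27, beside -0.12 for urg1 and -0.22 for urg2. Another 17 features without a gene name lay nearer to the mean of urg1 and urg2 than wtf20, the last of these 5 genes.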

How the data were processed

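Total RNA was labelled with biotin by a 3' IVT kit, per the labels' protocols. The deposited log2 values are RMA output of the affy package, according to the submitters' processing notes. Software versions, the build behind the array and any probe set filter were not given in the sources used here. That the log base is 2 was assumed, since RMA normally returns it and values ran from 2.99 to 15.17. Quantile normalization within RMA would hide a shift of most transcripts. Of 4999 probe sets, 2917 had 1 gene name in the platform annotation, 20 had several and 2062 had none. The gene number of 2914 matched the RefSeq gene table of ASM294v3, used for current names and gene order only. Probe sets of 1 gene were averaged, leaving 2899 named genes and 2082 unnamed features.

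Differences of log2 values were described by the 2-fold rule with the brightness limit, without a test, and the rule was tested on simulated data. Alternatives were 1.5-fold and 3-fold thresholds, no limit or one at the 50th percentile, repeated quantile normalization, removal of the intensity trend by lowess (span 0.3, statsmodels 0.14.6), centring on array medians, and the brightest probe set of each gene. For the distance between the urg mean and the ura median, the ura mean was also tried in place of the median. The members, lists and rules were chosen with earlier results of these data known. The text names all 7 members, eca39, all measured genes of 5 lists, the 4 nearest measured genes on either side of the urg cluster, and the 5 genes nearest in pattern. The list entry pcd1 was read as cdd1, of which it is an older name. A planned motif search in promoters was not run, since no promoter sequence was used here.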

Additional observations from a re-analysis of the deposited data

How the results depend on the processing

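No paired analysis was possible because each group had 1 array, and for the same reason no array could be left out. Taking the brightest probe set of each gene could not move the members, since each has 1 probe set. Under the 3 other scalings, all 63 recomputed differences of the 7 members in 3 comparisons moved by less than 0.245. That is the standard deviation of all differences between the mutant arrays, which also holds real effects. It is larger than most ura differences, so staying within it says little about these. The largest move was 0.092, for ura4 in the adapted culture against wild type. The log2 difference of urg1 from wild type ran from 3.29 to 3.41 in the deletion culture and from 3.15 to 3.23 in the adapted culture, and that of urg2 from 2.46 to 2.59 and from 2.23 to 2.30. The number of members past the rule was the same in all 24 recomputed counts, 8 settings in 3 comparisons, 1.5-fold and 3-fold thresholds included. Dropping the brightness limit could not change this number, since all 7 members reach the limit, and neither could taking the brightest probe set. The distance between the urg mean and the ura median moved by less than 0.245 in the 9 recomputations that could move it. These include the use of the ura mean in place of the ura median. Centring shifts all genes alike and leaves the distance as it is. The sign changed for ura1 (-0.086 to 0.0011) and ura4 (-0.013 to 0.11) in the deletion culture, for ura4 (-0.084 to 0.0078) in the adapted culture, and for ura1 between the mutant cultures. The number of all features that rose or fell moved with the rule. For the deletion culture against wild type the count of 85 became 219 at 1.5-fold, 38 at 3-fold and 152 without the brightness limit. For the adapted culture against wild type the count of 61 became 145, 25 and 133 under these settings, and for the adapted against the unadapted culture the count of 24 became 79, 5 and 46. Only 11 of the 31 listed pathway genes had a named probe set, and 1 array per group gives no error for any value.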

Other observations

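The readings of ura1 on the deletion and adapted arrays were identical to the last deposited digit. It was 1 of 640 features, or 12.8% of 4981, with identical values on those 2 arrays. Between the deletion array and wild type 561 features had identical values, between the adapted array and wild type 451, and 291 features had the same value on all 3 arrays. Among the 7 members no other pair of readings was identical.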
